A study of Homo sapiens with 10 samples.

Results

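RAB proteins are the largest branch of the RAS superfamily of small GTPases, and each marks and drives a step of vesicle transport. A RAB is loaded with GTP on its membrane by an exchange factor, recruits effectors that tether, move or fuse the vesicle, and is switched off by a GTPase-activating protein, after which a GDI carries it back through the cytosol on its lipid anchor. In squamous cells they route integrins, growth factor receptors, junction proteins and secreted proteases. The 59 genes described here are those whose symbol in the annotation of the authors' table is RAB, a number and an optional letter from A to D, out of 29405 symbols among the gene-level probe sets. They were matched by 61 probe sets, and where a gene had several (RAB11A and RAB44) the probe set with the highest mean over the 10 arrays stood for it.

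All samples were UT-SCC-12a cells, an established human line derived from cutaneous squamous cell carcinoma, the skin cancer of keratinocytes. They were stably transduced with a lentiviral shMIMIC construct for the microRNA miR-23b-3p (5 arrays, called overexpressing) or with a construct for a scrambled RNA (5 arrays, called control), and the total RNA of each sample was hybridised to an Affymetrix HuGene array. The labels name neither clones nor separate cultures. The spread behind every p-value is therefore that between these arrays, which may be technical, and their number limits the precision. Because the RNA came from bulk cultures, fewer cells making a transcript and less transcript per cell cannot be told apart.

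A microRNA pairs with its targets mainly through bases 2 to 8, the seed. The mature sequences of the overexpressed miR-23b-3p and of its relatives are shown 5′ to 3′ to define the perturbation, with the seed in capitals, as RefSeq gives them on GRCh38.p14.
miR-23b-3p: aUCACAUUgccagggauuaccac
miR-23a-3p: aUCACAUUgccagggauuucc
miR-23c: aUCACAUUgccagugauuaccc
The 3 share the seed UCACAUU and differ only after it. Pairing sites in RAB transcripts were not searched here.

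Array medians lay between 3.14 and 3.19 on the log2 scale, and arrays of a group correlated with r between 0.991 and 0.994 across probe sets. The antigenomic background probes averaged 3.25 to 3.46 per array. The MIR23B hairpin probe set read 6.21 ± 0.22 in controls and 6.43 ± 0.20 with the construct (SD, n = 5 each), a difference of 0.22 (SE 0.12, limma adjusted p = 0.799). It covers the genomic hairpin (hg19 chromosome 9, 97847490 to 97847586). Whether it detects mature miR-23b-3p made from the construct was not tested, so its value does not measure the overexpression. Of the keratinocyte markers, KRT5, TP63, SFN, DSG3 and PERP had means of 8.02 to 10.6, while the probe sets of KRT14, KRT17 and KRT6A read 3.70 to 3.82. Defining markers of melanocytes averaged 2.57 to 2.76 in control arrays and 2.57 to 2.79 in overexpressing arrays, all under the highest background value. None of the measured markers of melanocytes, fibroblasts, endothelium or blood had a mean above 5. The 3 measured endothelial markers averaged 3.94 to 4.03 in control arrays and 4.04 to 4.22 in overexpressing arrays, and their part in the results was not tested. The poly-A labelling spikes read 5.35 ± 0.093 with miR-23b-3p and 5.46 ± 0.020 in controls (SD, n = 5 each, exact two-sided permutation p = 0.0238).

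No RAB transcript passed the test for a difference with miR-23b-3p. In limma, 0 of 59 RAB genes passed an adjusted p of 0.05, where 0.0187% of all 48144 probe sets tested did (0.00415% higher and 0.0145% lower), and the lowest adjusted p of a RAB gene was 0.224. At an unadjusted p under 0.05 there were 4 of 59, or 6.78%, against 6.63% of all probe sets, so the share was close to the background in this fit. It was not close in 2 alternatives. Limma with a variance trend gave 8 of 59 (13.6%) against 6.86% of all probe sets. The test named in the authors' table, here the methods' t-test, gave 9 of 59 (15.3%) against 6.68%. RAB genes were brighter than most probe sets, with a mean above 5 for 41 of 59 against 12131 of 48144. No share among bright probe sets was computed for these 2 alternatives, so their comparison is not matched for brightness. In limma without the trend, all 4 stood higher with miR-23b-3p, namely RAB15, RAB3A, RAB25 and RAB26, where 3.67% of all probe sets were higher at that threshold and 2.95% lower. The 2 groups of arrays did not overlap for 2 RAB genes, RAB15 and RAB25, or 3.39%, against 1.35% of all probe sets (0.685% higher and 0.661% lower). Among the 41 RAB genes with a mean above 5 the same 4 genes made 9.76%, against 8.58% of all probe sets that bright, of which 4.58% were higher and 4% lower.

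The 95% interval of the difference lay within a 1.5-fold change in either direction for all 59 genes. The bound farthest from 0 was 0.53 on the log2 scale, or 1.45-fold, at RAB3A. Array values can understate true fold changes, most of all for dim probe sets, and 10 of the 59 had a mean under the highest background value of 3.46 (RAB3C, RAB6C, RAB33A, RAB37, RAB39A, RAB39B, RAB40A, RAB41, RAB42 and RAB44). In those 10 a narrow interval says little about the transcript. Differences ran from -0.19 to 0.35, 33 above 0 and 26 below, with a median of 0.018 against 0.002 over all probe sets, of which 51.2% were above 0.

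**Figure D1:**
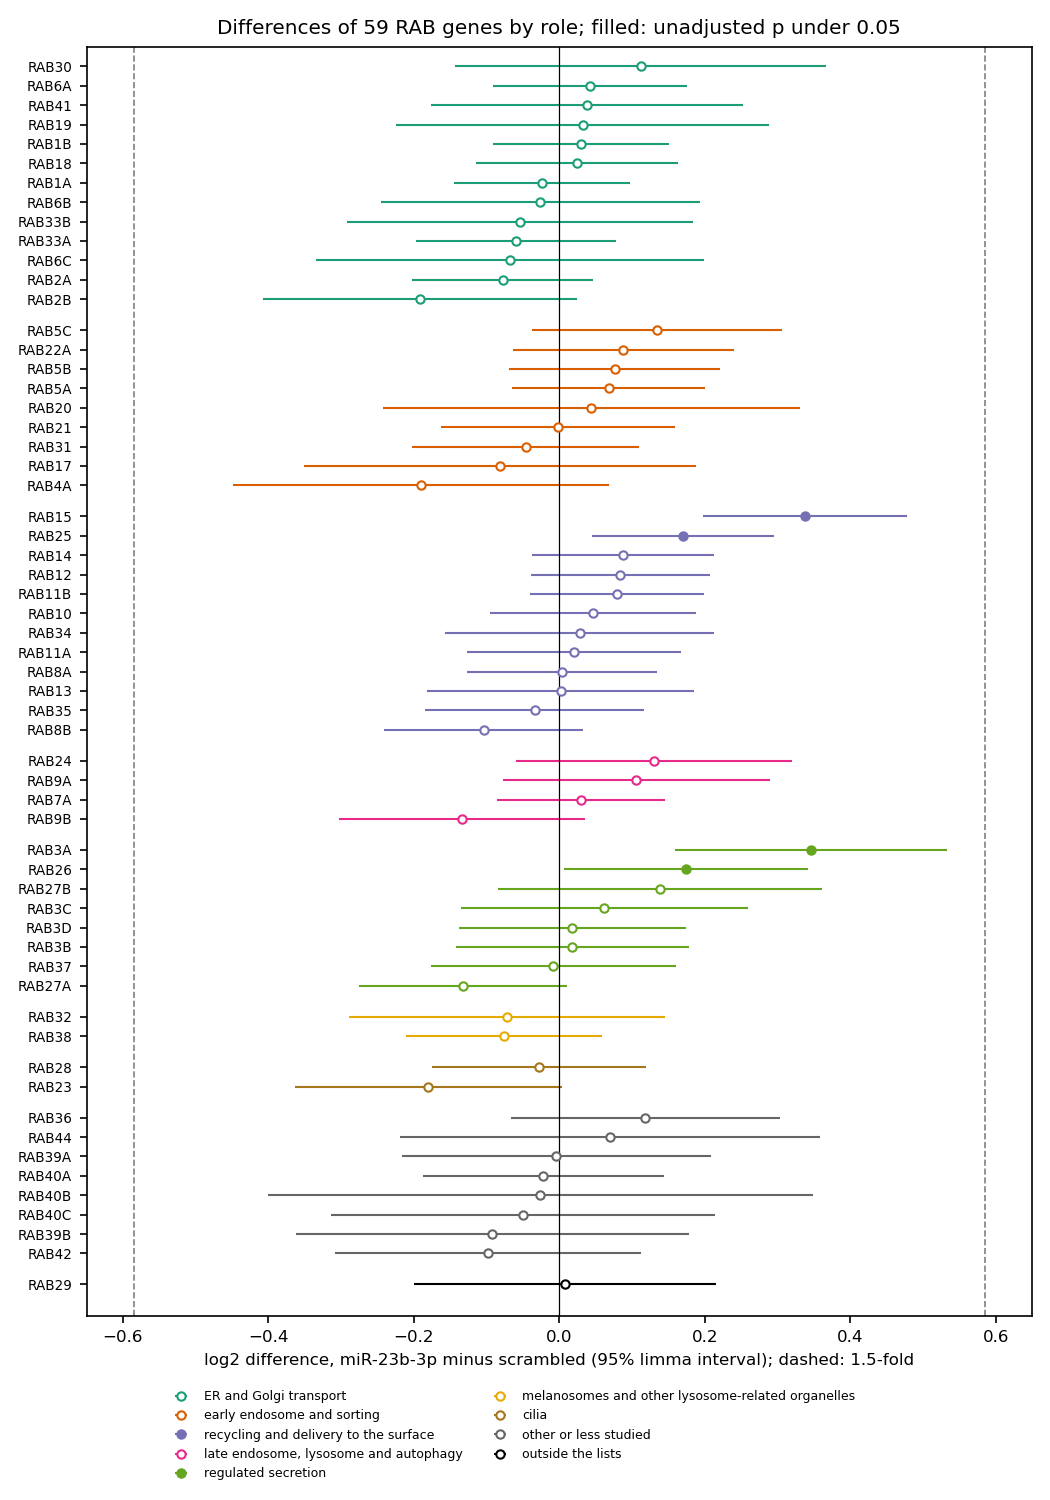
Log2 difference of each of the 59 RAB genes, overexpressing minus control, with its 95% limma interval, grouped by role from the top in the order of the legend. Filled points are the 4 genes with an unadjusted p under 0.05, and every interval stays inside the dashed lines at 1.5-fold.

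The endosomal recycling and surface delivery group held the gene with the lowest p of the family. RAB15, which acts at early and recycling endosomes and slows endocytic recycling (hg19 chromosome 14, 65412532 to 65439494, minus strand), read 6.45, 6.28, 6.38, 6.34 and 6.32 in control replicates 1 to 5 and 6.55, 6.71, 6.70, 6.80 and 6.70 in overexpressing replicates 1 to 5. Every overexpressing array lay above every control array. The means were 6.69 ± 0.090 and 6.35 ± 0.065 (SD, n = 5 each), a log2 difference of 0.34 (SE 0.065, 95% interval 0.20 to 0.48) or 1.26-fold. For RAB15 the exact two-sided permutation p was 0.00794, which no split of 10 arrays into equal groups can undercut, while the limma p was 0.000192 before and 0.224 after adjustment. In the authors' deposited table RAB15 has a fold of 1.26 with p = 0.000168 and q = 0.164.

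RAB25 is the epithelial relative of RAB11 that returns integrins to the surface and is known for its part in carcinoma invasion (hg19 chromosome 1, 156030951 to 156040295, plus strand). Its values were 7.83, 8.01, 7.91, 7.93 and 7.89 in controls and 8.06, 8.12, 8.13, 8.06 and 8.05 in overexpressing cells. The lowest overexpressing array, replicate 5, still lay above the highest control array, replicate 2. The difference was 0.17 (SE 0.058, 95% interval 0.045 to 0.30), 1.13-fold, with an exact permutation p of 0.00794 and a limma adjusted p of 0.650. The closest relatives of RAB25, the recycling RABs RAB11A and RAB11B, stood at 0.020 (SE 0.068) and 0.080 (SE 0.055). The other RAB11A probe set read 2.14 on average, below background, with a difference of -0.084.

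In all, 10 of the 12 recycling and delivery genes were above 0, with a median difference of 0.037 and a range of -0.10 to 0.34, and all 12 had means above 5. Among the tested probe sets with a mean above 5, 51.9% were above 0 and the median difference was 0.004. The list's median deviation per array ran from -0.051 to 0.004 in controls and from 0.0085 to 0.076 in overexpressing cells. That describes these arrays, and no test was made of it. The role lists were chosen with earlier results of these data known, so these counts depend on where genes were placed. RAB4A, a RAB of rapid recycling that stood at -0.19, was counted with the early endosome genes. RAB14 and RAB10, which serve the Golgi, endosomes and the basolateral surface, stood at 0.088 (SE 0.058) and 0.046 (SE 0.065). RAB12, linked to the turnover of transferrin receptor, read 9.56, 9.67, 9.56, 9.65 and 9.66 in controls and 9.69, 9.76, 9.73, 9.64 and 9.70 in overexpressing cells, a difference of 0.084 (SE 0.057, limma adjusted p = 0.841). The groups overlapped for RAB12 through overexpressing replicate 4. RAB8B, a RAB of exocytosis and primary cilia, had the lowest value of the group at -0.10 (SE 0.063), and its paralog RAB8A was at 0.004 (SE 0.060). RAB13 of tight junctions (0.002), RAB34 (0.028) and the fast recycling gene RAB35 (-0.034) lay within 1 SE of 0.

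**Figure D2:**
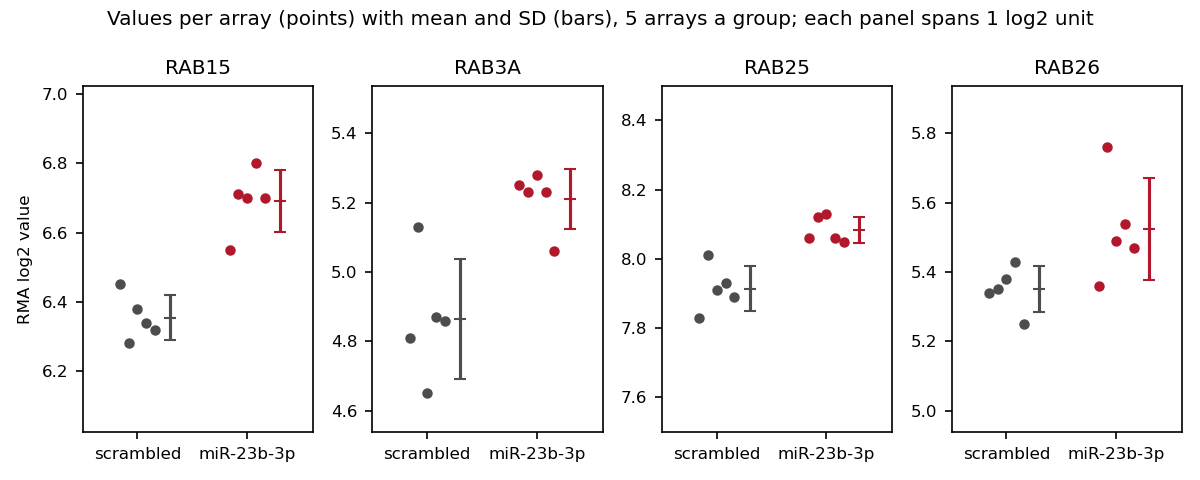
RMA log2 values per array of RAB15, RAB3A, RAB25 and RAB26 in 5 scrambled control and 5 miR-23b-3p arrays, with mean and SD beside the points and a span of 1 log2 unit on every axis. Groups do not overlap for RAB15 and RAB25, and they do for RAB3A and RAB26.

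Among the RABs of regulated secretion, RAB3A had the largest difference of the family. RAB3A controls the docking of synaptic and other secretory vesicles (hg19 chromosome 19, 18307594 to 18314874, minus strand). It read 4.81, 5.13, 4.65, 4.87 and 4.86 in controls and 5.25, 5.23, 5.28, 5.23 and 5.06 in overexpressing cells. Control replicate 2 lay above overexpressing replicate 5, so the groups overlapped. The difference was 0.35 (SE 0.086, 95% interval 0.16 to 0.53), 1.27-fold, with an exact permutation p of 0.0159 and a limma adjusted p of 0.424. In the authors' deposited table RAB3A has a fold of 1.27 with p = 0.00322 and q = 0.435.

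The RAB3 paralogs stood nearer to 0. RAB3B stood at 0.018 (SE 0.074) with values of 6.27 to 6.55 in controls and 6.26 to 6.55 in overexpressing cells. RAB3D, the RAB3 of exocrine and other nonneuronal secretory cells, was also at 0.018 (SE 0.072), and RAB3C at 0.062 (SE 0.091) was below background. Whether RAB3A differed from its paralogs in response was not tested. RAB26, a RAB of secretory granules and of autophagy (hg19 chromosome 16, 2198145 to 2204141, plus strand), read 5.34, 5.35, 5.38, 5.43 and 5.25 in controls and 5.36, 5.76, 5.49, 5.54 and 5.47 in overexpressing cells. The groups overlapped at overexpressing replicate 1, and overexpressing replicate 2 was the highest array. The difference of RAB26 was 0.17 (SE 0.077, 95% interval 0.0062 to 0.34, limma adjusted p = 0.749), and without overexpressing replicate 2 it was 0.12 with an unadjusted limma p of 0.116.

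RAB27A and RAB27B, which dock secretory lysosomes and exosome-bearing endosomes at the plasma membrane, are added here after their values were seen. RAB27A lay between 6.26 and 6.52 in controls and between 6.24 and 6.38 in overexpressing cells, a difference of -0.13 (SE 0.066, limma adjusted p = 0.771). RAB27B lay between 7.09 and 7.40 in controls and between 7.11 and 7.63 in overexpressing cells, a difference of 0.14 (SE 0.10, limma adjusted p = 0.856). The groups overlapped for each of them. RAB37, a RAB of secretory granules, averaged within the range of the background probes and stood at -0.008. In the secretion group 6 of 8 genes were above 0, where 51.2% of all probe sets were, with a median of 0.040 against 0.002. RAB3A and RAB26 made 2 of 8 at an unadjusted limma p under 0.05, against 6.63% of all probe sets. The list is short and was chosen with earlier results of these data known.

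Transport between the endoplasmic reticulum and the Golgi was the largest group. An unadjusted p under 0.05 was reached by 0 of its 13 measured genes, against 6.63% of all probe sets. At that share a list this short can hold none. Of the 13 genes, 6 were above 0 and 7 below, with a median of -0.024. RAB1A and RAB1B, which tether vesicles moving from the endoplasmic reticulum to the Golgi, stood at -0.024 (SE 0.056) and 0.030 (SE 0.056), RAB1B at 0.068 with renewed quantile normalization. RAB6A, which governs retrograde and exit traffic at the Golgi, stood at 0.042 (SE 0.062), with 10.02, 10.11, 10.02, 10.06 and 10.09 in controls and 10.07, 10.18, 10.03, 10.02 and 10.21 in overexpressing cells. The 95% intervals of these 3 genes reached at most 0.18 on the log2 scale, the upper bound of RAB6A.

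RAB2B, a Golgi RAB also used in autophagosome clearance, read 6.30, 6.28, 6.41, 6.41 and 6.23 in controls and 5.74, 6.26, 6.18, 6.27 and 6.22 in overexpressing cells. Overexpressing replicate 1 lay far below the other 4. The difference of RAB2B was -0.19 (SE 0.099, limma adjusted p = 0.789), and -0.094 without that array. Its paralog RAB2A stood at -0.078 (SE 0.057, limma adjusted p = 0.853). RAB18 of lipid droplets and the endoplasmic reticulum (0.024), the Golgi RABs RAB19 (0.032), RAB30 (0.11), RAB33B (-0.054) and RAB6B (-0.026), and the dim RAB33A (-0.060), RAB41 (0.038) and RAB6C (-0.068) each lay within 1 SE of 0. The probes of RAB6C, a retrogene of RAB6A, are the only ones of the 59 whose cross-hybridization type in the file is not 1, so its value is uncertain.

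Early endosome genes split 5 above 0 and 4 below, with a median of 0.044. An unadjusted p under 0.05 was reached by 0 of 9, against 6.63% of all probe sets. The 3 RAB5 paralogs, which drive homotypic fusion of early endosomes, stood at 0.068 (RAB5A, SE 0.061), 0.076 (RAB5B, SE 0.067) and 0.13 (RAB5C, SE 0.079). RAB5C ran from 5.08 to 5.37 in controls and from 5.28 to 5.52 in overexpressing cells, so the groups overlapped (limma adjusted p = 0.816). RAB4A, a RAB of rapid recycling, had the lowest value at -0.19 (SE 0.12, limma adjusted p = 0.830). It read 5.79, 5.85, 5.73, 6.07 and 5.73 in controls and 5.21, 5.86, 5.85, 5.65 and 5.65 in overexpressing cells. As at RAB2B, overexpressing replicate 1 was the lowest array, and the difference of RAB4A was -0.082 without it. RAB21, which carries integrins inward, stood at -0.002 (SE 0.074), RAB22A at 0.088, RAB31 at -0.046, RAB17 of epithelial transcytosis at -0.082 and RAB20 of phagosomes at 0.044.

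Late endosome and lysosome genes gave no unadjusted p under 0.05 among 4, where 6.63% of all probe sets had one. RAB7A, the main RAB of late endosomes and lysosomes, read 11.51, 11.49, 11.50, 11.47 and 11.46 in controls and 11.51, 11.57, 11.46, 11.51 and 11.53 in overexpressing cells. Its difference of 0.030 (SE 0.053, 95% interval -0.086 to 0.15) had the smallest SE of the family. With renewed quantile normalization it was 0.079. RAB9A, which returns mannose 6-phosphate receptors to the Golgi, was at 0.11 (SE 0.084) and RAB9B at -0.13 (SE 0.078, limma adjusted p = 0.812), opposite in sign with 95% intervals that each include 0. RAB24, a RAB of autophagy, was at 0.13 (SE 0.087, limma adjusted p = 0.840).

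RAB32 and RAB38, which deliver pigment enzymes to melanosomes and serve other lysosome-related organelles, stood at -0.072 (SE 0.10) and -0.076 (SE 0.062). Without overexpressing replicate 1 the difference of RAB32 was -0.0005. RAB38 read 8.96, 8.82, 8.77, 8.98 and 8.80 in controls and 8.81, 8.77, 8.79, 8.78 and 8.80 in overexpressing cells, while 0 of 6 melanocyte markers had a mean above 5. Of the ciliary RABs, RAB23, an inhibitor of Hedgehog signalling, read 7.01, 6.98, 7.0, 7.14 and 7.17 in controls and 6.73, 7.11, 6.95, 6.71 and 6.90 in overexpressing cells. Only overexpressing replicate 2 reached the control range. The difference of RAB23 was -0.18 (SE 0.085, 95% interval -0.36 to 0.0036, exact permutation p = 0.0794, limma adjusted p = 0.757). RAB28, which takes part in turnover at the cilium of photoreceptors, stood at -0.028 (SE 0.067). The less studied genes held RAB36 at 0.12 (SE 0.085) and RAB42 at -0.098 (SE 0.097), with RAB44, RAB39A, RAB39B, RAB40A, RAB40B and RAB40C between -0.092 and 0.070. Leaving out overexpressing replicate 1 gave 0.067 for RAB36, and leaving out control replicate 4 gave -0.039 for RAB42. The other RAB44 probe set, with a mean of 2.81, stood at 0.19. RAB29, a RAB of the Golgi and stressed lysosomes that was in no role list, stood at 0.008 (SE 0.095).

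**Figure D3:**
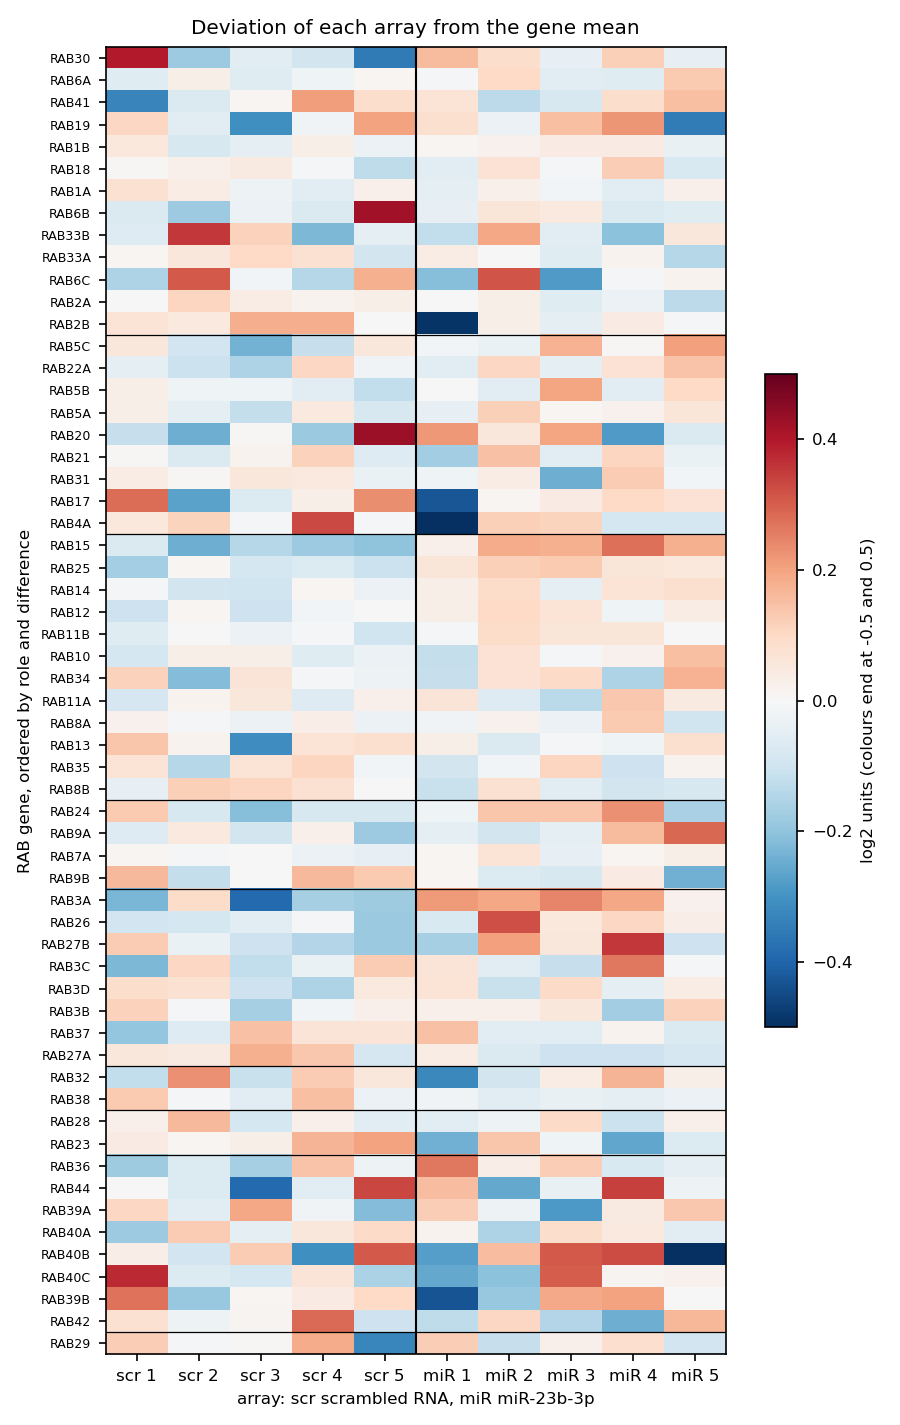
Deviation of each of the 10 arrays from the gene's mean over all arrays, in log2 units, for the 59 RAB genes ordered by role and difference, controls left of the line and overexpressing arrays right of it. RAB15 is blue in every control array and red in every overexpressing array, and the darkest cells of RAB2B and RAB4A belong to overexpressing replicate 1.

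The count at an unadjusted p under 0.05 depended on how the variance was estimated. Of the 9 RAB genes of the methods' t-test, 7 were higher (3.54% of all probe sets were) and 2 lower (3.14%). These were RAB15, RAB3A, RAB25, RAB26, RAB11B, RAB12 and RAB14 on the higher side and RAB2A and RAB27A on the lower side. After Benjamini-Hochberg adjustment 0 of the 59 passed that test, with RAB15 lowest at 0.150. Of the 8 with a variance trend, 7 were higher (3.69% of all probe sets were) and RAB23 was lower (3.17%), and 0 passed after adjustment. The shares beside both settings are over all probe sets, bright and dim, and were not matched to the brightness of the RAB genes. When each array's mean poly-A signal entered the fit as a covariate, differences were 0.29 for RAB15, 0.26 for RAB3A, 0.17 for RAB25, 0.17 for RAB26 and -0.054 for RAB23. In that fit RAB5C stood at 0.20, RAB3B at 0.13, RAB6A at 0.12, RAB9B at -0.23 and RAB32 at -0.14. The partner genes UNC13D, DENND4B and RABIF stood at 0.36, 0.19 and -0.026. The spikes themselves differed between the groups, with means of 5.35 in overexpressing and 5.46 in control arrays. Spike signal and construct therefore cannot be fully told apart in this fit, and its values are not corrected effects.

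The proteins that load, unload and read RABs were followed in 131 genes. In limma 0 of 131 passed an adjusted p of 0.05 (0.0187% of all probe sets did), and 7 (5.34%) had an unadjusted p under 0.05, 4 higher and 3 lower, against 6.63% of all probe sets. Their median difference was 0.014, from 0.0005 to 0.0265 when single arrays were left out and -0.002 with median centring. Prenylation, escort and GDI genes, which attach and shuttle the lipid-anchored RABs, gave 0 of 8 at an unadjusted p under 0.05. There the escort protein gene CHML stood at 0.094 (SE 0.055), the RAB extraction factor gene GDI2 at -0.054 (SE 0.055) and the chaperone-like RABIF at -0.072 (SE 0.066). Exchange factors gave 0 of 35, with 24 (68.6%) at or above 0, against 51.2% of all probe sets, and a median of 0.024. Those 24 include HPS4, whose mean was 5.49 in both groups. They also include RAB3GAP1 (0.034) and RAB3GAP2 (0.006). These RAB3GAP genes are named for GTPase-activating action on RAB3 but were counted with the exchange factors, so the counts of both lists depend on that placement. DENND3, an exchange factor for RAB12, stood at 0.18 (SE 0.098), DENND4B for RAB10 at 0.12 (SE 0.072) and DENND1A for RAB35 at -0.10 (SE 0.082). DENND1A stood at -0.042 without overexpressing replicate 1 and DENND4B at 0.071 without control replicate 3.

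GTPase-activating proteins gave 3 of 35 (8.57%) at an unadjusted p under 0.05, against 6.63% of all probe sets. Of the 35, 12 (34.3%) were above 0, against 51.2% of all probe sets, and their median was -0.014. SGSM1 read 3.16, 3.34, 3.25, 3.05 and 3.16 in controls and 3.40, 3.50, 3.62, 3.36 and 3.64 in overexpressing cells, without overlap. Its difference was 0.31 (SE 0.079, limma adjusted p = 0.424), at a mean of 3.35 that lies within the range of the background probes. TBC1D7, a subunit of the TSC complex that restrains mTORC1, read 5.49, 5.65, 5.63, 5.41 and 5.60 in controls and 4.91, 5.40, 5.16, 5.42 and 5.18 in overexpressing cells. The groups overlapped only between overexpressing replicate 4 and control replicate 4, and the difference of TBC1D7 was -0.34 (SE 0.098, limma adjusted p = 0.521), or -0.14 as the mean of all its probe sets. TBC1D4, known for holding glucose transporter vesicles inside the cell, stood at -0.28 (SE 0.11, limma adjusted p = 0.707).

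Effectors gave 4 of 53 (7.55%) at an unadjusted p under 0.05, near the 6.63% of all probe sets, 3 higher and 1 lower, with a median of 0.028. UNC13D, a RAB27 effector that primes secretory granules, stood at 0.21 (SE 0.086, limma adjusted p = 0.719), and EXPH5, a RAB27B effector of keratinocytes, at 0.18 (SE 0.078, limma adjusted p = 0.750). The RAB11 effectors RAB11FIP1 and RAB11FIP2 stood at 0.18 (SE 0.081) and -0.19 (SE 0.087), each with a limma adjusted p of 0.750. The groups were apart for 2 of the 131 partners (1.53%), SGSM1 and OSBPL1A, close to the 1.35% of all probe sets. The RAB7 effector OSBPL1A lay between 8.27 and 8.38 in controls and between 8.40 and 8.50 in overexpressing cells. Its difference was 0.11 (SE 0.055, limma adjusted p = 0.789). RAB11FIP1 and OSBPL1A were named after their values were seen.

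**Figure D4:**
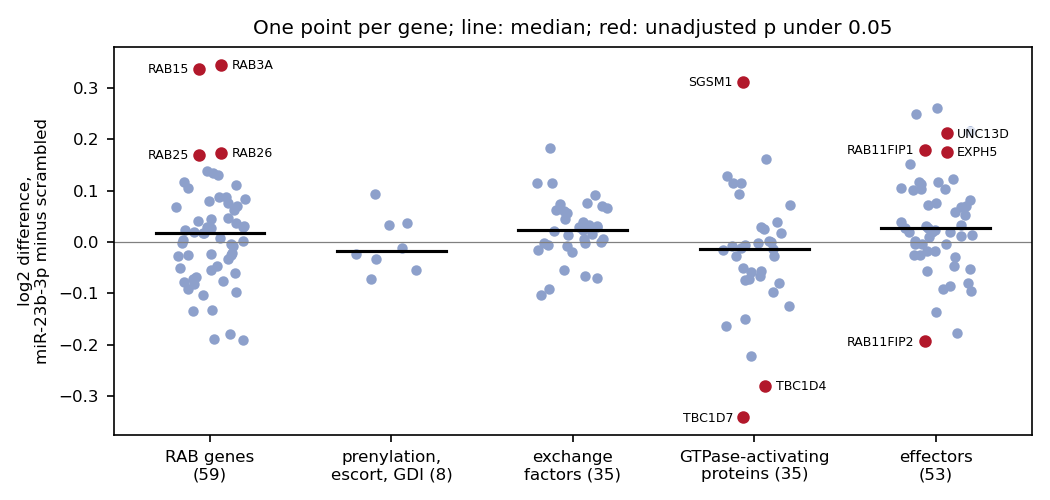
Log2 difference, overexpressing minus control, of the 59 RAB genes and of their 131 partner genes in 4 groups, with a line at each median and red points at an unadjusted p under 0.05. Medians lie between -0.018 and 0.028, and the lowest point is TBC1D7 at -0.34.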

How the data were processed

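The values analysed are deposited log2 values, made by RMA per the submitters' processing notes; per the file headers they come from background correction, quantile normalization and median polish. The notes also name Transcriptome Analysis Console, without a version. The authors' table adds a signed fold change (a score with no value between -1 and 1), a p-value and a q-value per probe set, which its header credits to a Student's test. The authors' fold equalled the overexpressing over control ratio of mean linear values for 53617 of 53617 probe sets (relative tolerance 0.001), which fixed log base and direction. Their 10 columns per array match no sample label and were not used. Symbols, hg19 coordinates and cross-hybridization types came from the annotation columns; partner symbols were updated through Entrez identifiers to RefSeq (GRCh38.p14, names only). RAB4B, RAB7B and RAB43 were not analysed here.

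Of 53617 probe sets, 48144 (main and rescue) entered a limma 3.58.1 fit (R 4.3.3) of the 10 arrays with no covariate, and p-values were adjusted over all of them by Benjamini-Hochberg. SE is the moderated standard error. Exact permutation tests used all 252 splits. The fit was tested on simulated arrays. No array was a duplicate, since at most 2.16% of values were identical between arrays. Members, role and partner lists were chosen with earlier results of these data known. Named were RAB genes with an unadjusted p under 0.05 or groups apart and their paralogs, the 6 with the highest mean, the 2 with the smallest p of each role and the 3 of each partner list. Members named beyond that rule complete the account of each role. Alternatives were a replicate block, variance priors, filters, centring, renewed quantile normalization, array weights, the methods' t-test, a spike covariate, other probe set rules, a threshold of 0.01 and leaving out each array. Counts over probe sets with a mean above 5 were added after seeing the data.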

Additional observations from a re-analysis of the deposited data

Results flagged for a closer look

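Among the named genes, 74 groups of 5 arrays were searched for a single array far from the rest by Dixon's test, which marks about 1 group in 20 by chance, and 2 were marked. RAB2B read 5.74 in overexpressing replicate 1, where the nearest other overexpressing array read 6.18. RAB3A read 5.06 in overexpressing replicate 5, where the nearest other overexpressing array read 5.23, and without that array its difference was 0.38 (limma adjusted p = 0.399).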

How the results depend on the processing

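Under every alternative run, 0 of 59 RAB genes and 0 of 131 partner genes were called at an adjusted p of 0.05, and RAB15, RAB3A, RAB25 and RAB26 kept their direction; adjusted p ran from 0.0763 to 0.651 for RAB15, from 0.290 to 0.751 for RAB3A, from 0.325 to 0.800 for RAB25 and from 0.672 to 0.847 for RAB26. RAB genes at an unadjusted p under 0.05 numbered 8 with a variance trend and 9 by the methods' t-test, 3 to 5 without a single array (6.16% to 6.77% of all probe sets), and 4 of 41 (9.76%) above a mean of 5, where 8.58% of probe sets were. RAB genes without overlap numbered 2 to 4 without a single array, 4 (6.78%) without control replicate 5 or without overexpressing replicate 2, where 2.13% and 2.17% of all probe sets had none; over the settings without a single array this share of all probe sets was 2.13% to 2.33%. Partner genes at an unadjusted p under 0.05 numbered 4 to 6 without a single array, 4 without control replicate 2 or 5. The RAB median difference ran from -0.007, without overexpressing replicate 4, to 0.025. Over all probe sets, calls numbered 9, 5 at a threshold of 0.01, 26 with a variance trend, 2 with the spike covariate and 5 to 8 without a single array. Deviations of same-numbered arrays correlated at -0.101 to 0.0428, and 0 of 5 numbers correlated best with their own, so no pairing by number was seen. Whether same-numbered arrays shared a culture or a batch was not tested. With the replicate block 1 probe set was called over all. In that fit 3 RAB genes (5.08%) had an unadjusted p under 0.05, as did 6.14% of all probe sets. With the spike covariate the sign turned for RAB1A (0.0046), RAB1B (-0.00013), RAB3C (-0.060), RAB24 (-0.033), RAB28 (0.010), RAB42 (0.079) and DENND1A (0.00073). Without a single array it turned for RAB28 (-0.055 to 0.0095), RAB3B (-0.021 to 0.064) and RAB3D (-0.018 to 0.049). Leaving out a single array moved the difference by over 1.5 times for 18 of 37 named genes, and not for RAB15, RAB3A or RAB25. Overlap of the groups has no separate value where an alternative changes only the model (block, priors, weights, t-test or spike covariate). The cause was not tested for any of these.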

Other observations

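Single arrays contributed unevenly to the spread of the RAB genes. Overexpressing replicate 1 was the highest of the 10 arrays for 1 of 59 RAB genes and the lowest for 9. Control replicates 3 and 5 were also the lowest for 9 each, and control replicate 1 was the lowest for 8 and the highest for 9. Overexpressing replicate 2 was the highest for 8 and the lowest for 0. Overexpressing replicate 4 was the highest for 11 and control replicate 5 for 3. Equal values were credited to the array listed first, with controls listed before overexpressing arrays. Such counts over all probe sets are not given here. The median deviation of the RAB genes per array lay between -0.030 and 0.022 in controls and between -0.015 and 0.040 in overexpressing cells, so the 2 groups overlapped.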
